A study of Mus musculus with 12 samples.

Results

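Transcripts of 10 genes of fatty acid uptake and of the carnitine shuttle were examined in mouse heart RNA-seq: Lpl, Cd36, Slc27a1, Fabp3, Acsl1, Slc22a5, Cpt1a, Cpt1b, Cpt2 and Crat. They were taken by gene symbol from a table of 43686 rows, in which each of the 10 has 1 row. The 12 libraries were made from ventricular wall, 6 of WT mice (Sdhaf4 fl/fl, no Cre) and 6 of KO mice (Sdhaf4 fl/fl, Ckmm-Cre). The strain is C57BL/6 in the labels and C57BL/6J in the study's text. Sdhaf4 encodes an assembly factor of succinate dehydrogenase, and the floxed alleles are shared by both groups, so the Cre transgene is carried by KO alone. The muscle creatine kinase promoter drives this Cre in cardiac and skeletal muscle, so other cells of the heart keep the gene. The sample labels name the genotypes wild type and Sdhaf4-/- without the Cre and give an age of 2 months, and other ages stand in the study's own text.

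The adult heart draws most of its energy from fatty acids. Lipoprotein lipase, made largely by cardiomyocytes and moved to the capillary wall, frees fatty acids from circulating triglycerides. CD36 and fatty acid transport proteins bring them into the cell, heart-type fatty acid binding protein carries them in the cytosol, and acyl-CoA synthetases activate them to acyl-CoA. Long-chain acyl groups cross into mitochondria as carnitine esters: CPT1 on the outer membrane makes acylcarnitine, a translocase exchanges it, and CPT2 inside gives acyl-CoA back. Carnitine itself enters the cell through OCTN2, the product of Slc22a5. Carnitine acetyltransferase, the product of Crat, exchanges acetyl groups between CoA and carnitine.

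The targeted gene was low in every KO library. Sdhaf4 was at 14.3 to 30.3 CPM (counts scaled to library size by the TMM method) in WT and at 2.25 to 2.73 CPM in KO, with means of 25.2 ± 5.80 and 2.40 ± 0.170 (SD, n = 6 each). WT replicate 6 was the lowest in WT, at 14.3 CPM against 24.1 to 30.3 CPM in the other WT libraries. Library totals were 23747014 to 27159228 counts in WT and 26542930 to 31393393 in KO. The cardiomyocyte markers Tnnt2, Myh6 and Mb were abundant in both groups. Of 12 cardiomyocyte markers tested, 5 were lower in KO (among them Tnni3, log2 fold change -0.89, and Pln, -0.79), 2 were higher (Mybpc3, 1.05, and Tnnc1, 0.33) and 5 were not called. Their summed level was 67719 to 74328 CPM in WT and 59652 to 82068 CPM in KO. Fibroblast markers summed to 1318 to 1491 CPM in WT and 2331 to 3873 CPM in KO, with 7 of 8 higher and Dpt lower. Endothelial markers summed to 1822 to 1988 CPM in WT and 2036 to 2580 CPM in KO, with 6 of 9 higher, Tek lower and 2 not called. Macrophage markers summed to 202 to 283 CPM in WT and 203 to 325 CPM in KO, with 1 of 7 higher and 2 lower. Adipocyte markers summed to 1.05 to 2.49 CPM in WT and 0.0978 to 1.17 CPM in KO, where the only one of 8 tested, Adig, was lower. KO replicate 3 stood apart from the other KO libraries in 2 of these sums. Its cardiomyocyte marker sum was 82068 CPM against 59652 to 67451 CPM, and its endothelial marker sum was the lowest, 2036 CPM against 2368 to 2580 CPM. KO replicate 6 had the lowest fibroblast marker sum of the KO libraries, 2331 CPM against 2533 to 3873 CPM. In bulk tissue, fewer cells of a type and less RNA per cell cannot be told apart, and what part these markers have in the results below was not tested.

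In KO hearts 9 of the 10 genes fell and 1, Cpt1a, rose. The test was edgeR's quasi-likelihood test over the 17155 rows with enough counts, with Benjamini-Hochberg adjustment over all of them and a threshold of 0.05. All 10 genes passed the filter on low counts. The 9 genes called lower stand beside 25.5% of all rows called lower, and the 1 called higher beside 25.6% of all rows called higher. Lpl, Slc27a1, Cpt2 and Slc22a5, 4 of the 10, also passed the stricter thresholds of the study's methods, an adjusted p of 0.005 and a log2 fold change beyond 1, as did 4.87% of all rows in the lower direction. None of the 10 passed them in the higher direction, as did 5.36% of all rows. In 7 of the 10 genes all KO libraries lay below all WT libraries, which held for 15.2% of all rows, and in none did all KO libraries lie above, which held for 14.9%. The median log2 fold change was -0.71 over the 10 genes and 0.00 over all rows tested, and the 10 values ran from -1.20 to 0.19. The 10 genes together held 1.63% to 1.79% of all counts of a WT library and 0.952% to 1.27% of all counts of a KO library. When libraries were scaled to the summed counts of the cardiomyocyte markers in place of TMM, the median of all rows moved up by 0.12 (log2). The calls over all rows were then 5029 higher and 2739 lower, against 4391 and 4376, and 9 of the 10 genes were again lower and 1 higher, with a median of -0.61.

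**Figure D1:**
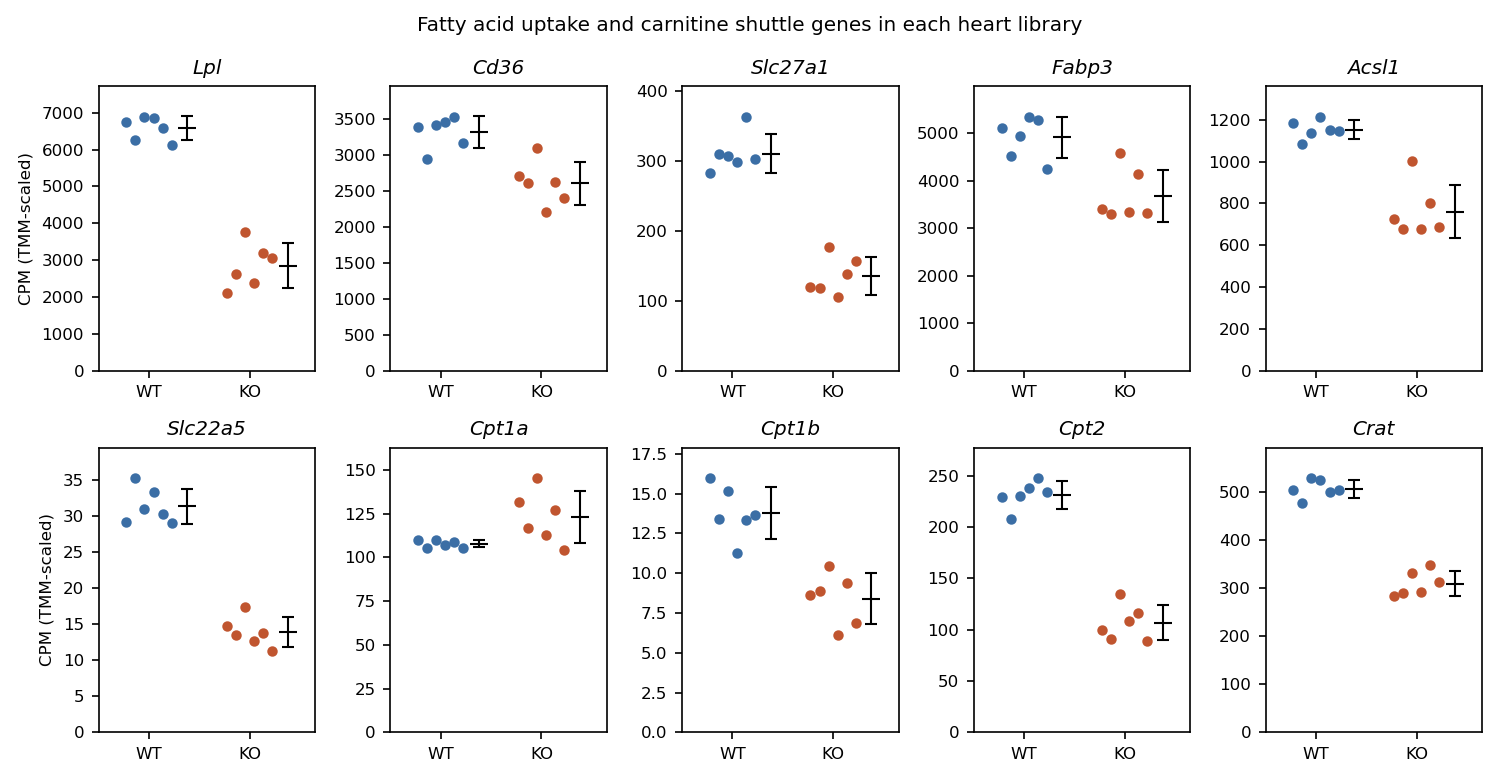
Level of each of the 10 genes in CPM (vertical axes from 0) in the 6 WT and 6 KO libraries, 1 point per library in the order of the replicate numbers, with the mean and SD beside each group. In 7 genes the groups are separate with KO lower, Cd36 and Fabp3 are lower with overlap, and in Cpt1a the KO points run from just below the lowest WT point (104 against 105 CPM) to 145 CPM.

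Release and entry of fatty acids were examined first. Lpl (MGP_C57BL6NJ_G0034158, chromosome 8, 71612060 to 71641079, plus strand of the C57BL/6NJ assembly) encodes lipoprotein lipase. It was at 6125, 6667 and 6894 CPM in WT (lowest, median and highest library) and at 2100, 2841 and 3760 CPM in KO. Every KO library lay far below the lowest WT library. Means were 6578 ± 323 CPM in WT and 2855 ± 603 CPM in KO (SD, n = 6 each), a fall to 43.4% of the WT mean (log2 fold change -1.20, SE 0.11, adjusted p = 2.27e-07). Slc27a1 (MGP_C57BL6NJ_G0034252, chromosome 8, 74716488 to 74738410, plus strand) encodes the fatty acid transport protein FATP1. It was at 283, 305 and 364 CPM in WT and at 106, 129 and 177 CPM in KO. The groups did not overlap here either, and the mean fell to 43.7% of WT, from 311 ± 27.6 to 136 ± 26.8 CPM (log2 fold change -1.19, SE 0.11, adjusted p = 5.66e-07). Cd36 (MGP_C57BL6NJ_G0029736, chromosome 5, 16469833 to 16584935, minus strand) encodes the main membrane receptor for long-chain fatty acids in muscle. It was at 2940, 3400 and 3528 CPM in WT and at 2210, 2615 and 3089 CPM in KO. Only KO replicate 3, at 3089 CPM, reached into the WT range, above WT replicate 2 at 2940 CPM. The mean fell from 3313 ± 220 to 2603 ± 298 CPM, 78.6% of WT (log2 fold change -0.35, SE 0.08, adjusted p = 0.00107). Cd36 thus fell by a log2 fold change whose 95% interval, -0.52 to -0.18, does not meet the intervals of Lpl (-1.46 to -0.95) and Slc27a1 (-1.44 to -0.95). Endothelial cells and adipocytes also make CD36. The endothelial markers summed to a median of 1942 CPM in WT and 2409 CPM in KO, with 6 of 9 higher and 1 lower. The 8 adipocyte markers together reached only 1.05 to 2.49 CPM in WT and 0.0978 to 1.17 CPM in KO. Adig, the only adipocyte marker tested, was lower in KO (means of 0.957 and 0.0928 CPM in WT and KO). The part of either cell type in the level of Cd36 was not tested.

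Genes of binding and activation fell as well, with smaller fold changes than Lpl. Fabp3 (MGP_C57BL6NJ_G0029273, chromosome 4, 137260699 to 137267567, plus strand), the heart-type fatty acid binding protein, was at 4251, 5030 and 5353 CPM in WT and at 3293, 3372 and 4576 CPM in KO. KO replicate 3 lay among the WT libraries, and the 5 others lay below all of them. Expression fell from a mean of 4913 ± 437 to 3682 ± 545 CPM, 74.9% of WT (log2 fold change -0.42, SE 0.09, adjusted p = 0.00105). The row overlaps Zcchc17 and Gm10570 on the other strand, and it is not known whether the counting used strand. Adding the counts of its pseudogene row Fabp3-ps1, at 11.9 ± 1.29 CPM in WT and 9.19 ± 1.48 CPM in KO, left the log2 fold change at -0.42. Acsl1 (MGP_C57BL6NJ_G0034083, chromosome 8, 47299711 to 47371100, plus strand) encodes the main long-chain acyl-CoA synthetase of the heart. It was at 1084, 1147 and 1215 CPM in WT and at 676, 705 and 1004 CPM in KO. The groups did not overlap, though KO replicate 3 stood well above the other KO libraries. The mean fell from 1153 ± 44.4 to 761 ± 128 CPM, 66.0% of WT (log2 fold change -0.60, SE 0.09, adjusted p = 2.02e-05).

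Slc22a5 (MGP_C57BL6NJ_G0018699, chromosome 11, 54899150 to 54934409, minus strand), which encodes the carnitine transporter OCTN2, fell in KO with the 2 groups well apart. It was at 29.0, 30.6 and 35.3 CPM in WT and at 11.2, 13.7 and 17.4 CPM in KO. Its counts were 692 to 977 per WT library and 312 to 526 per KO library. On average it fell from 31.4 ± 2.47 to 13.9 ± 2.08 CPM, 44.3% of WT (log2 fold change -1.17, SE 0.09, adjusted p = 1.76e-08). Its relatives moved in opposite directions. Slc22a21, a related carnitine transporter, fell from 12.3 ± 0.880 to 5.97 ± 0.450 CPM (log2 fold change -1.05, SE 0.09, adjusted p = 3.46e-08). Slc22a4, which encodes OCTN1, rose from 3.89 ± 0.984 to 8.81 ± 2.63 CPM (log2 fold change 1.18, SE 0.21, adjusted p = 2.14e-04). The Slc22a21 row overlaps an unnamed row, and the 3 genes are related enough that reads from shared stretches could be assigned uncertainly.

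The enzymes of the shuttle itself did not move together. Cpt2 and Crat fell, and Cpt1a, the form of CPT1 that dominates in liver and in the fetal heart, rose slightly. Cpt1a (MGP_C57BL6NJ_G0025036, chromosome 19, 69461 to 131183, plus strand) was at 105, 108 and 110 CPM in WT and at 104, 122 and 145 CPM in KO. The 6 WT libraries were closely grouped, 5 KO libraries lay above all of them, and KO replicate 6 lay just below. The mean was 108 ± 2.17 CPM in WT and 123 ± 14.7 CPM in KO (log2 fold change 0.19, 95% interval 0.04 to 0.34, SE 0.07, adjusted p = 0.0225). This call was lost without KO replicate 1 (log2 fold change 0.17, adjusted p = 0.0514) and without KO replicate 3 (log2 fold change 0.13, adjusted p = 0.0584). Hepatocyte markers were near 0 in both groups, with a sum of 0.405 to 0.905 CPM in WT and 0.132 to 0.450 CPM in KO. Cpt2 (MGP_C57BL6NJ_G0028967, chromosome 4, 112500516 to 112524972, minus strand), the single CPT of the inner membrane, was at 208, 232 and 248 CPM in WT and at 89.4, 104 and 135 CPM in KO. All KO libraries lay below all WT libraries. The mean fell from 231 ± 13.2 to 107 ± 17.1 CPM, 46.1% of WT (log2 fold change -1.12, SE 0.09, adjusted p = 3.42e-08). Crat (MGP_C57BL6NJ_G0025987, chromosome 2, 29566501 to 29581833, minus strand) was at 479, 505 and 530 CPM in WT and at 285, 302 and 348 CPM in KO. It had the smallest spread among KO libraries of the 10 genes (coefficient of variation 8.33%), and its groups were well apart. Its mean fell from 507 ± 18.5 to 310 ± 25.8 CPM (log2 fold change -0.71, SE 0.06, adjusted p = 2.85e-08). The Crat row overlaps Dolpp1, Golga2 and an unnamed row, all on the other strand.

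Cpt1b (MGP_C57BL6NJ_G0022645, chromosome 15, 93906305 to 93922305, minus strand) encodes the form of CPT1 that dominates in adult muscle and heart. Its row lies wholly inside that of Chkb, which encodes choline kinase beta (93906305 to 93926350, same strand), so reads in shared exons may have been given to either or to none, and the level of the row cannot be read as the level of the gene. The row was at 11.3, 13.5 and 16.0 CPM in WT and at 6.15, 8.76 and 10.4 CPM in KO, from 284 to 385 counts per WT library and 179 to 315 per KO library. All KO libraries lay below all WT libraries. The row's mean fell from 13.8 ± 1.63 to 8.40 ± 1.596 CPM (log2 fold change -0.72, SE 0.12, adjusted p = 1.07e-04). The Chkb row fell too, from 64.1 ± 4.01 to 46.0 ± 4.22 CPM (log2 fold change -0.48, SE 0.06, adjusted p = 7.79e-06). With the counts of both rows added, the log2 fold change was -0.53 (adjusted p = 1.77e-06).

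The balance of the CPT1 forms was then compared within each library, where scaling by library size cancels. The log2 ratio of Cpt1a to Cpt1b in FPKM (counts scaled to gene length and library size) was 1.10 ± 0.16 in WT and 2.02 ± 0.17 in KO (SD, n = 6 each). It ran from 0.91 to 1.38 in WT and from 1.85 to 2.32 in KO, so the groups did not overlap. The difference of 0.91 had p = 0.00216 in a two-sided exact permutation test over the 12 libraries, the smallest this design can give. The Cpt1b row alone already separated the groups, and Cpt1a was not called lower. The p of the ratio therefore adds no support to the results of the 2 rows. With the Chkb counts added to those of Cpt1b, the difference was 0.70 with the same exact permutation p. Because of the shared exons and of the gene lengths behind the FPKM, the ratio gives the direction of the change between the rows and not the proportion of the forms. Reads given to neither Cpt1b nor Chkb are missing from it, also with the Chkb counts added. The log2 ratio of Cpt1a to Cpt2, chosen after the values had been seen and given with no test, was -3.24 ± 0.079 in WT and -1.92 ± 0.14 in KO. It ran from -3.33 to -3.12 in WT and from -2.09 to -1.73 in KO. With the gene lengths listed in the table in place of the shorter ones behind the FPKM of Cpt1b and Cpt2, the mean ratio to Cpt1b was 2.40 in WT and 3.32 in KO, and that to Cpt2 was -1.96 and -0.64. The differences between the groups stay at 0.91 and 1.31, since a fixed length cancels in them.

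**Figure D2:**
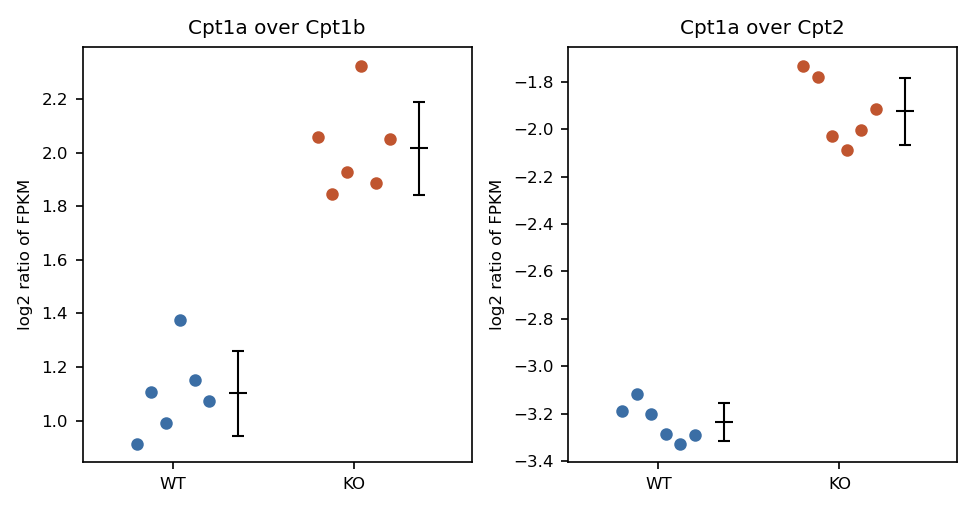
Log2 ratio of the FPKM of Cpt1a to that of Cpt1b (left) and of Cpt2 (right) in each WT and KO library, 1 point per library in the order of the replicate numbers, with the mean and SD beside each group. The vertical axes do not start at 0, and in both panels all 6 KO points lie above all 6 WT points, by a difference of means of 0.91 and 1.31.

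The upstream sequences of Cpt1a and Cpt2 are shown because the rise of 1 and the fall of the other set them furthest apart among the CPT genes of the 10. RefSeq start sites of the GRCm38.p6 assembly, another assembly than that of the table, gave 250 bases before the start for 7 of the 10 genes (10 windows, since Slc27a1 has 3 and Acsl1 has 2). Lpl, Cpt1b and Crat were not among them. The motifs searched on both strands were AGGTCA, the hexamer that nuclear receptors such as the PPARs and ERRs bind, TCAAGGTCA, the extended ERR site that contains it, a direct repeat of AGGTCA with 1 base between, and ACGTG, the core of E-boxes and hypoxia response elements. Capitals mark a match to AGGTCA, here read on the minus strand as TGACCT.
Cpt1a (chr19:3323051-3323300, plus strand): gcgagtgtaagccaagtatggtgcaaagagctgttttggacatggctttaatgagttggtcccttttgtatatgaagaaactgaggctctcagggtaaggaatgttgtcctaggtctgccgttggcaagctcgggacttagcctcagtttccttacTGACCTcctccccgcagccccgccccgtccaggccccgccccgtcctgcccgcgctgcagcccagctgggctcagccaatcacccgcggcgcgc
Cpt2 (chr4:107923590-107923839, minus strand): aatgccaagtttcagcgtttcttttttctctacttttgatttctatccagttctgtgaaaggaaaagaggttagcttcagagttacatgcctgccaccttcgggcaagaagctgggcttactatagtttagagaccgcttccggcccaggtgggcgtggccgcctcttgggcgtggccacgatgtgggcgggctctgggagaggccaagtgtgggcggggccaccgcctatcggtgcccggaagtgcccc
The match in Cpt1a begins 94 bases before the start, and Cpt2 holds none. The hexamer occurred in 2 of the 10 windows, beside 14.02% of all 32851 windows of this length. These 2 are the windows of Cpt1a and Cd36, the latter with its match 228 bases before the start. ACGTG occurred in 1 window of Slc27a1, as the palindrome CACGTG, and in 16.57% of all windows. TCAAGGTCA and the direct repeat occurred in none of the 10 windows, and in 0.39% and 0.03% of all windows. Cpt1a, which rose, and Cd36, which fell, both hold the hexamer.

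Levels per length were then set in order, as a description. In WT, the mean FPKM was highest for Fabp3 (5954 ± 427), followed by Lpl (2990 ± 102), Cd36 (1317 ± 66.1), Acsl1 (538 ± 18.3), Crat (367 ± 11.3), Cpt2 (236 ± 11.4), Slc27a1 (93.5 ± 7.60), Cpt1a (25.0 ± 0.347), Slc22a5 (20.03 ± 1.68) and Cpt1b (11.7 ± 1.40). No neighbours in this order overlapped in their WT ranges. The place of Cpt1b, here and in KO, is that of its row inside Chkb, whose level cannot be read as the level of the gene. Fabp3, Lpl and Cd36 thus stood far above the carnitine transporter gene Slc22a5. In KO the order was the same, with mean FPKM of 4466 for Fabp3, 1295 for Lpl, 1035 for Cd36, 355 for Acsl1, 224 for Crat, 109 for Cpt2, 40.8 for Slc27a1, 28.6 for Cpt1a, 8.88 for Slc22a5 and 7.13 for Cpt1b. Lpl and Cd36 overlapped in KO, as did Slc22a5 and Cpt1b, so these neighbours cannot be ordered there. The deposited FPKM rest on a gene length that for 7 of the 10 genes is shorter than the length listed for the row, down to 32.6% of it for Crat. With the listed lengths, the order was the same in both groups, but the WT ranges of Cpt2 (89.3 to 102) and Slc27a1 (84.9 to 107) then overlapped. In KO the ranges of Cpt2 (36.7 to 54.7) and Slc27a1 (32.8 to 51.2) then overlapped as well, Lpl and Cd36 still did, and Slc22a5 (3.54 to 5.42) and Cpt1b (2.19 to 3.47) no longer did.

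**Figure D3:**
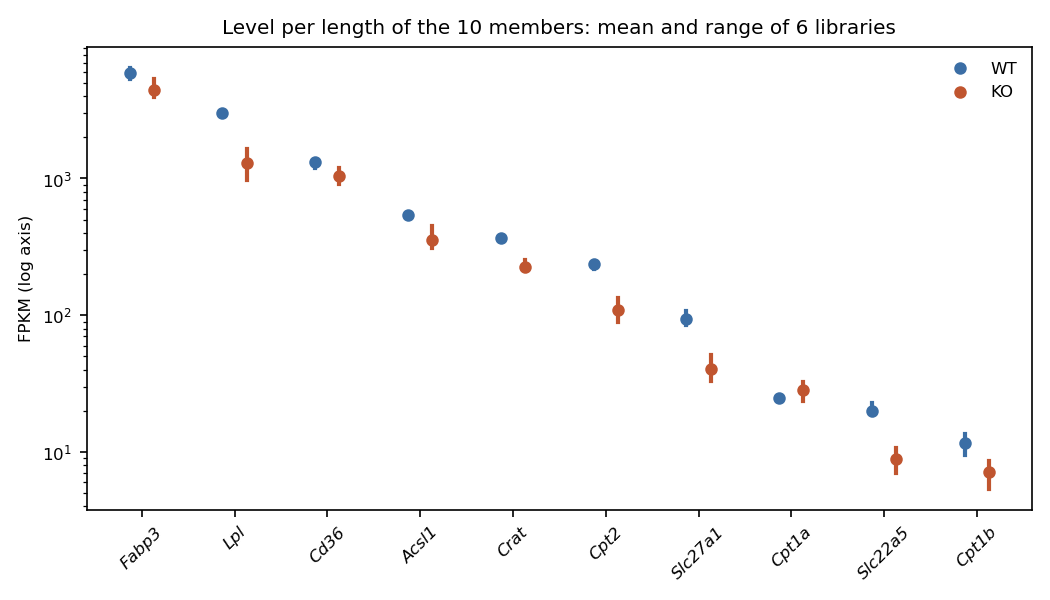
Mean FPKM (points, log axis) and range over 6 libraries (lines) of the 10 genes in WT and KO, in the WT order. Fabp3 stands highest and the row of Cpt1b lowest in both groups, and the KO points lie below the WT points for all genes but Cpt1a. The Cpt1b row lies inside that of Chkb, so its level cannot be read as the level of the gene.

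The KO libraries differed among themselves more than the WT libraries did, relative to the mean in these 10 genes, and over all rows. There chi-square over degrees of freedom between a pair of libraries was 11.0 to 48.6 in KO and 6.99 to 20.9 in WT. This measure also grows with counts, and median totals were 29399085 in KO and 25476732.5 in WT. It was 26.9 to 48.6 in pairs with KO replicate 3, 22.1 to 44.2 in pairs with KO replicate 6, and 11.0 to 15.6 in the remaining KO pairs. The coefficient of variation was larger in KO than in WT for all 10 genes, for instance 21.1% against 4.91% for Lpl, 16.9% against 3.85% for Acsl1 and 11.95% against 2.01% for Cpt1a. It rises where a mean falls. The SD itself was slightly smaller in KO for Slc27a1, Slc22a5 and Cpt1b, and larger for the other genes. KO replicate 3 had the highest KO level of 9 of the 10 genes, and KO replicate 5 that of Crat. The median over the 10 genes of the log2 ratio to the WT mean was -0.51 in KO replicate 3 and -0.55 in KO replicate 5, against -0.94 in KO replicate 4, -0.87 in replicate 6, -0.79 in replicate 2 and -0.75 in replicate 1. The lowest KO level fell to replicates 4 and 6 in 3 genes each and to replicates 1 and 2 in 2 genes each. The highest library was therefore nearly always the same one, and it was also the KO library with the highest cardiomyocyte and the lowest endothelial marker sum. The part of these markers in its levels was not tested. Without KO replicate 3, 9 of the 10 genes were lower, none was called higher, and the median log2 fold change over the 10 was -0.77.

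**Figure D4:**
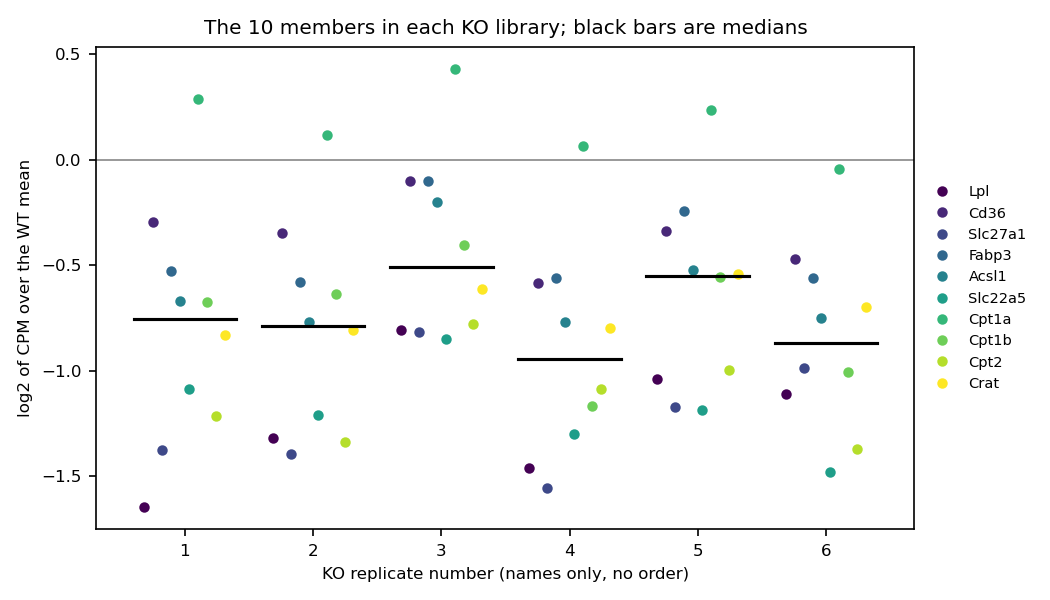
Log2 of the CPM of each of the 10 genes over its WT mean (vertical axis, 0 is the WT mean) in each KO library (horizontal axis), with the median over the 10 genes as a black bar. The medians run from -0.94 in replicate 4 to -0.51 in replicate 3, and Cpt1a is the only gene above 0, in 5 of the 6 libraries.

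Around these genes, 47 others of the same pathway were chosen by role, of which 43 were found by symbol and 31 passed the filter on low counts. Lrp1, Acot2, Tmlhe and Acaca were not found by symbol and were not analysed here. Of the 31, 17 fell, 6 rose and 8 were not called, beside 25.5% of all rows called lower and 25.6% called higher, and the median log2 fold change was -0.33 against 0.00 over all rows. All KO libraries lay below all WT libraries in 14 of the 31 and above in 4, beside 15.2% and 14.9% of all rows.

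Partners of lipoprotein lipase moved both ways. Angptl4, a secreted inhibitor of the enzyme, fell from 111 ± 19.9 to 43.8 ± 14.7 CPM (log2 fold change -1.33, SE 0.23, adjusted p = 5.27e-04), with WT libraries at 89.1 to 136 and KO libraries at 20.3 to 61.3 CPM. Gpihbp1, which carries and anchors the enzyme on capillary endothelium, rose from 186 ± 19.1 to 291 ± 26.2 CPM (log2 fold change 0.65, SE 0.07, adjusted p = 1.27e-06). Its groups were apart, at 168 to 215 CPM in WT and 251 to 316 CPM in KO. The summed endothelial markers were higher in KO as well, with a median of 2409 against 1942 CPM, and their part in this result was not tested.

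Most relatives of Slc27a1 and Fabp3 that could be tested were not called. Slc27a4 was at 24.3 ± 1.53 CPM in WT and 25.3 ± 0.809 CPM in KO (log2 fold change 0.06, 95% interval -0.07 to 0.18, adjusted p = 0.415), in a row that overlaps Golga2. Slc27a3 was near 1 CPM (log2 fold change 0.49, interval -0.30 to 1.27, adjusted p = 0.265), and Slc27a2, Slc27a5 and Slc27a6 were too low to be tested. Fabp4, the adipocyte and capillary form, was at 1635 ± 169 CPM in WT and 1551 ± 207 CPM in KO (log2 fold change -0.08, interval -0.28 to 0.12, adjusted p = 0.507). Fabp5 was at 52.6 ± 8.33 and 53.0 ± 8.54 CPM (log2 fold change 0.01, interval -0.25 to 0.27, adjusted p = 0.948). Both intervals span 0, and changes within them were not detectable with these libraries. Fabp7, the brain form, fell at a low level, from 1.45 ± 0.259 to 0.440 ± 0.148 CPM (log2 fold change -1.71, adjusted p = 4.54e-05).

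Other acyl-CoA synthetases moved in both directions, as did the acyl-CoA thioesterases. Acsl3 fell from 12.7 ± 1.18 to 7.77 ± 0.944 CPM (log2 fold change -0.71, adjusted p = 1.06e-05), in a row that overlaps Utp14b. Acsl4, which prefers arachidonic acid, rose from 20.8 ± 0.658 to 26.9 ± 0.956 CPM (log2 fold change 0.37, adjusted p = 1.42e-05), with no overlap of the groups. Acsl5 (log2 fold change 0.17, interval -0.06 to 0.40, adjusted p = 0.180) and Acsl6 (-0.30, interval -0.64 to 0.04, adjusted p = 0.112) were not called with all libraries. Acsl5 was called higher without KO replicate 6 (adjusted p = 0.0379), and Acsl6 was called lower without WT replicate 2 (adjusted p = 0.0384) and without KO replicate 3 (adjusted p = 0.0235). Acot1, a cytosolic thioesterase that splits long-chain acyl-CoA, had the largest fall of the 31, from 89.9 ± 10.03 to 6.26 ± 2.17 CPM (log2 fold change -3.84, SE 0.19, adjusted p = 6.02e-09). It was at 80.4 to 108 CPM in WT and at 3.71 to 9.97 CPM in KO. Acot1 has a near-identical copy in Acot2, and reads shared by both make its value uncertain. Of the other thioesterases tested, Acot13 was lower (log2 fold change -0.35, adjusted p = 8.32e-04), and Acot9 (0.40, adjusted p = 1.77e-04) and Acot7 (0.20, adjusted p = 0.0310) were higher, the last in a row that overlaps an unnamed row. The call of Acot7 was lost without WT replicate 2, 4, 5 or 6 and without KO replicate 3, 5 or 6 (adjusted p of 0.0555 to 0.0809).

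Slc25a20, Crot, Acacb and Mlycd fell in KO, and Cpt1c rose. Slc25a20, the translocase between CPT1 and CPT2, fell from 277 ± 13.1 to 169 ± 25.0 CPM (log2 fold change -0.71, SE 0.08, adjusted p = 1.30e-06). Crot, the carnitine octanoyltransferase of peroxisomes, fell from 60.9 ± 4.61 to 44.7 ± 3.33 CPM (log2 fold change -0.44, adjusted p = 1.38e-05), in a row that overlaps unnamed rows. Cpt1c, the brain form of CPT1, rose at a low level from 3.12 ± 0.574 to 5.19 ± 0.953 CPM (log2 fold change 0.73, SE 0.16, adjusted p = 8.67e-04). Malonyl-CoA, the inhibitor of CPT1, is made at the mitochondrial surface by the product of Acacb and removed by that of Mlycd. Acacb fell from 550.5 ± 23.99 to 319 ± 49.6 CPM (log2 fold change -0.79, SE 0.09, adjusted p = 1.21e-06), and Mlycd fell from 256 ± 16.3 to 145 ± 19.8 CPM (log2 fold change -0.82, SE 0.08, adjusted p = 2.50e-07). Acacb, for making malonyl-CoA, and Mlycd, for removing it, were thus lower by like amounts, with no overlap of the groups in either. Acaca was not found by symbol and has no value here.

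**Figure D5:**
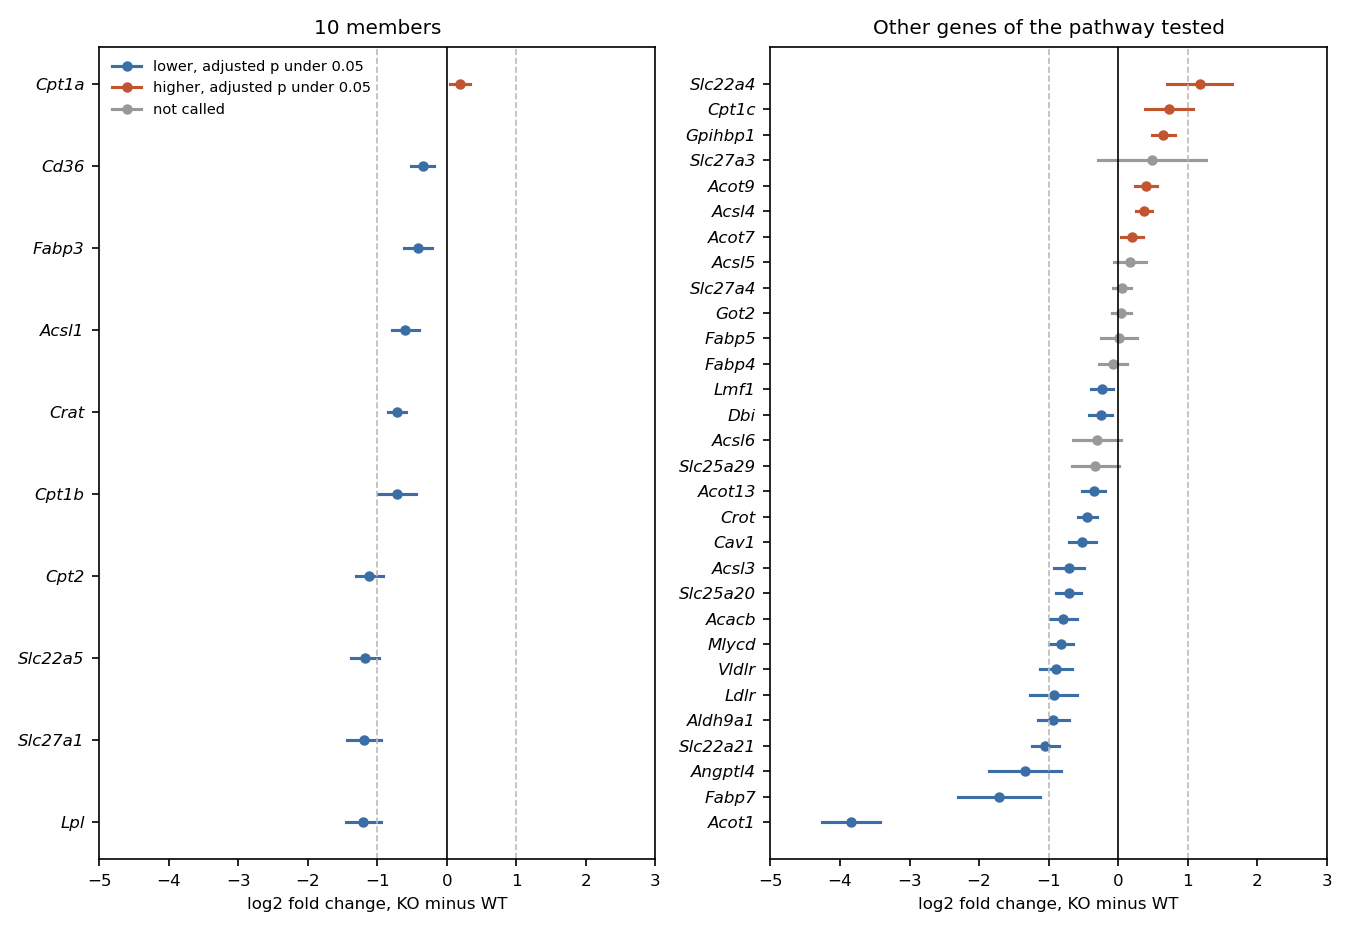
Log2 fold change of KO over WT (horizontal axis) with its 95% interval for the 10 genes (left) and the other genes of the pathway that were tested (right, 1 of the 31 not shown), colored by the call at an adjusted p of 0.05, with dashed lines at -1 and 1. On the left Cpt1a is the only gene above 0, and on the right Acot1 stands lowest at -3.84 and Slc22a4 highest at 1.18.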

How the data were processed

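Ventricular wall mRNA was sequenced after poly-A selection in 6 WT and 6 KO libraries, and libraries were assigned to groups from the sample labels. The authors deposited raw counts of reads per gene made with HTSeq, with the strand setting not given in the sources used here. The authors also deposited FPKM, scaled to a gene length and the library total. The submitters' processing notes name HISAT2 2.0.5 and mm10, whereas the identifiers and coordinates are those of the C57BL/6NJ assembly. The deposited fold changes and p-values of the authors' own comparison (DESeq) were not used. The sources do not state that each library is a separate mouse, so p-values measure the spread between these samples, which may be technical. The 10 genes, the lists and the tests were chosen with earlier results of these data known.

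The robust quasi-likelihood test of edgeR 4.0.16 (R 4.3.3) was run on the 17155 rows that filterByExpr retained, after TMM scaling. Each standard error follows from the F statistic of its row, and 95% intervals from the standard errors. Library totals of 23747014 to 31393393 counts limit rows near 1 CPM, and the spread between libraries is the error given. Any pair of libraries within a group differed by more than counting error (chi-square over degrees of freedom 6.99 to 48.6). Genes named were all 10 members, the isoforms of Acsl and Slc27a, the other shuttle and lipase partners set in the list, and every other listed gene past both of the stricter thresholds, except 1 that is not reported here. Alternatives were other scalings and filters, DESeq2 1.42.0, limma 3.58.1 (voom, and log2(FPKM + 1)), a replicate block, rows of unannotated loci left out and each library left out. The adding of overlapping or pseudogene rows, the ratio of Cpt1a to Cpt2 and the listed gene lengths were chosen after seeing the data, and Acot7, Acot9 and Acot13 were named after their values were seen. The edgeR steps were tested on simulated data. Promoter windows came from RefSeq (GRCm38.p6).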

Additional observations from a re-analysis of the deposited data

Results flagged for a closer look

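Of 72 groups of 6 libraries examined, 4 held a library far from the others, where chance gives about 3.6. KO replicate 1 had the highest Sdhaf4 level of the KO libraries, at 2.73 CPM against 2.25 to 2.41 CPM in the others. WT replicate 5 had an Slc27a1 level of 364 CPM against 283 to 310 CPM in the other WT libraries. WT replicate 6 had an Mlycd level of 223 CPM against 258 to 266 CPM in the other WT libraries. KO replicate 3 had an Acot13 level of 246 CPM against 183 to 197 CPM in the other KO libraries.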

How the results depend on the processing

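The count of the 10 genes lower in KO was 9, and the count past the stricter thresholds was 4, under all 24 alternatives. The count higher in KO was 0 to 1 when each library was left out, being 0 without KO replicate 1 and without KO replicate 3, and 1 under all other alternatives. Over 242 refits of single members, 240 kept direction and call and 2, both of Cpt1a, lost the call. Of the wider list, 15 to 19 genes were lower and 5 to 8 higher. Fabp4, not called in any fit, reversed in sign when scaled to cardiomyocyte markers (0.039). Fabp5, also never called, ran from -0.062 to 0.081 with a library left out and reversed in 5 of these 12 fits, without WT replicate 1, 3 or 4 and without KO replicate 1 or 2. The cause was not tested. Replicate numbers did not pair the samples (correlations of -0.162 to 0.0243 between same-numbered libraries, with 1 of 6 closest to its own number). A replicate block gave 9 members lower and 1 higher, and 4110 lower and 4123 higher calls over all rows. Low counts limit Fabp7 and Slc27a3.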
